A study of Mus musculus with 6 samples.

Results

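Genes of the piRNA pathway and of germ granules were examined for Dppa2 binding in mouse ESCs. The group was fixed by gene name in GENCODE M1 on mm9 and holds 10 genes, Piwil1, Piwil2, Piwil4, Ddx4, Mov10l1, Mael, Tdrd1, Tdrd9, Asz1 and Fkbp6, of the 22367 protein-coding genes annotated on the 21 chromosomes with a peak. Their names were set by pathway and not by peak values, but with earlier results from this experiment known, so that no test was made on the group. A gene was taken as Dppa2-bound when the midpoint of a listed peak lay within 1000 bp of any of its transcription start sites (TSSs). The peaks come from an anti-V5 ChIP-seq on CGR8 ESCs, a feeder-independent mouse line grown in serum and leukemia inhibitory factor. These cells stably expressed Dppa2 with an N-terminal V5 tag from a pPyCAG vector after puromycin selection. The parental CGR8 line, without a V5 tag, served as the control ChIP in peak calling. The labels and methods do not say whether the V5-Dppa2 line was a single clone, and no change to the Dppa2 gene of the cells themselves is given. There was 1 library per condition, so no replicate error can be given and no comparison between conditions was tested. A peak list holds no expression values, so the ESC label could not be checked against markers.

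piRNAs are small RNAs of the germ line that guide PIWI proteins to transposon transcripts and, in the nucleus, to transposon DNA. Their precursors are selected, cut, trimmed and loaded on PIWI proteins in granules of the germ cell cytoplasm, many of which lie against mitochondria. Genes of this pathway are expressed mainly in germ cells, and the promoters of many of them carry DNA methylation in somatic tissues.

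Of the 10 genes, 6 had a Dppa2 peak at their TSS, namely Mov10l1, Tdrd1, Ddx4, Mael, Piwil1 and Fkbp6. The other 4, Piwil2, Piwil4, Tdrd9 and Asz1, had none. Among all protein-coding genes, 14.2% were bound by the same definition. In each of the 6 bound genes the peak covered the TSS, and the midpoint lay at most 227 bp from the nearest TSS. The closest listed midpoint to an unbound gene lay 28.95 kb away, at Piwil2, so that no gene of the group was near the limit of 1000 bp. The listed peaks carry names that start with TSS, so the list may hold only peaks at gene starts. All distances given here are to listed peaks and do not show that Dppa2 was absent in between. The score of a peak is 10 times the negative log10 of its MACS p-value against the control ChIP and ran from 100 to 3100 over the 3336 listed peaks, with a median of 228. The 6 scores were 231 at Fkbp6, 301 at Piwil1, 302 at Mael, 344 at Ddx4, 457 at Tdrd1 and 1691 at Mov10l1. All 6 were above the median of the list, that of Fkbp6 only just.

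**Figure D1:**
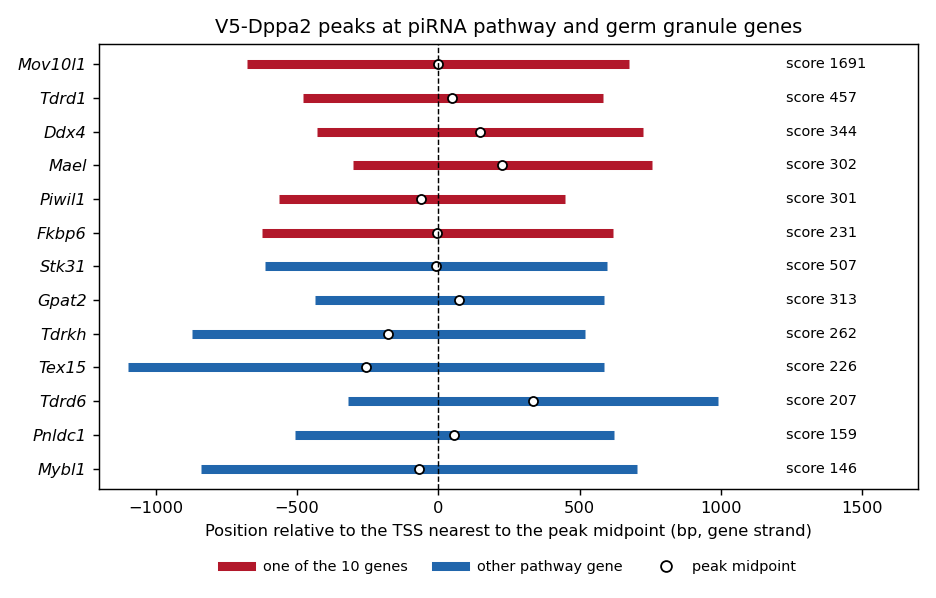
Spans of the V5-Dppa2 peaks (bars) and their midpoints (circles) in bp from the nearest TSS (dashed line), for the 6 bound genes of the group in red and 7 other bound genes of the pathway in blue, with the peak score at the right. All 13 bars cross the TSS, and the red midpoints lie between 60 bp before and 227 bp after it.

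The PIWI proteins bind piRNAs directly, and among their 3 genes only Piwil1 was bound. Piwil1 (ENSMUSG00000029423), which encodes the PIWI protein MIWI of meiotic and later male germ cells, is on chromosome 5, plus strand, between 129242121 and 129261349. The peak there spans chr5:129241556-129242567, which is 1012 bp, and has a score of 301 and rank 1117. The midpoint lies 60 bp upstream of the only annotated TSS, with 565 bp of the peak before the TSS and 447 bp from the TSS on. The 240 bases before this TSS are printed because they lie within the peak and hold 2 copies of CACGTG, an E-box read the same on both strands, which is set in capitals here and in the promoters below.
Piwil1 (chr5:129241881-129242120, plus strand): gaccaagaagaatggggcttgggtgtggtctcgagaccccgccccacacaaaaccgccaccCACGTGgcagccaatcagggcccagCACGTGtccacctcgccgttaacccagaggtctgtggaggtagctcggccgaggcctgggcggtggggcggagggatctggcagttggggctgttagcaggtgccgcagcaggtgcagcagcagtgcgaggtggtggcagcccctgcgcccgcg

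Piwil2 (ENSMUSG00000033644) encodes MILI, the PIWI protein that also works in fetal male germ cells, and Piwil4 (ENSMUSG00000036912) encodes the PIWI protein that enters the nucleus of these cells. For Piwil2, with 1 annotated TSS on chromosome 14, the nearest midpoint was 28.95 kb upstream, in a peak with a score of 106 at the gene Phyhip. For Piwil4, with 4 annotated TSSs on chromosome 9, it was 104.9 kb upstream of the gene, in a peak with a score of 572 at Gm16302. The list leaves out peaks below the authors' thresholds on p-value and read number, and may leave out peaks away from gene starts. It so shows no binding that passed the thresholds at the TSSs of either gene, rather than that Dppa2 was absent.

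The helicases of the group were divided in the same way. Mov10l1 (ENSMUSG00000015365), an RNA helicase that binds piRNA precursors, had the strongest peak of the group. The peak spans chr15:88812748-88814097, which is 1350 bp, and its score of 1691 ranked 9 of the 3336 peaks and 1 of the 142 peaks on chromosome 15. The next score in the group was 457, at Tdrd1. The scale is one of log10 p-values and depends on read number as well as on enrichment. The peak covers both TSSs at the start of the gene, at 88813339 and 88813424, and its midpoint lies 2 bp upstream of the latter. The other 3 annotated TSSs lie 28464 bp or more into the gene, outside the peak.
Mov10l1 (chr15:88813099-88813338, plus strand): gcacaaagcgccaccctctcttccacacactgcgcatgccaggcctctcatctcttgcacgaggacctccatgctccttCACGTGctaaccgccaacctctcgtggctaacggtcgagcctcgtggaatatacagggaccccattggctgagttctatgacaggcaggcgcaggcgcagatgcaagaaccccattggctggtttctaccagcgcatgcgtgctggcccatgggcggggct

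Ddx4 (ENSMUSG00000021758), the mouse Vasa gene, encodes the DEAD-box helicase by which germ granules are commonly recognised. Its peak spans chr13:113441795-113442946, which is 1152 bp, with a score of 344 and rank 862. The midpoint falls in intron 1, 148 bp downstream of the TSS that both annotated transcripts share. Tdrd9 (ENSMUSG00000054003), which joins a helicase with a Tudor domain, had no peak. The midpoint nearest to its single TSS on chromosome 12 was 159.4 kb downstream, in a peak at Mir203 with a score of 328. The 240 bases before both TSSs are given, since the bound promoter and the unbound one each hold the E-box.
Ddx4 (chr13:113442519-113442758, minus strand): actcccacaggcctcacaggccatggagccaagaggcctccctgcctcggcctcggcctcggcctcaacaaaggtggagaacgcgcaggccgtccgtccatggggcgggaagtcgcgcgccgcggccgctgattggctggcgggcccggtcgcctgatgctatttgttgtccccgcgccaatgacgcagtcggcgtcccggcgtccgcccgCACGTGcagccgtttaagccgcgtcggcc
Tdrd9 (chr12:113209530-113209769, plus strand): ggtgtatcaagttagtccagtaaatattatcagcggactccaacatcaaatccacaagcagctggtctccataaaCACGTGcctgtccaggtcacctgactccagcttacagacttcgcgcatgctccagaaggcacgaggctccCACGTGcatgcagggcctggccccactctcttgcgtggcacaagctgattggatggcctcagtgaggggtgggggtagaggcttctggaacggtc

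Mael (ENSMUSG00000040629), which encodes the granule protein Maelstrom needed for transposon silencing, had a peak at chr1:168168120-168169177, which is 1058 bp, with a score of 302 and rank 1110. It was centred in intron 1, 227 bp into the gene, the farthest of the group, and 756 bp of the peak lie from the TSS on against 302 bp before it. Mael and Piwil1 thus had nearly the same score and width, with the peak shifted into the gene at Mael and centred slightly before the TSS at Piwil1.
Mael (chr1:168168876-168169115, minus strand): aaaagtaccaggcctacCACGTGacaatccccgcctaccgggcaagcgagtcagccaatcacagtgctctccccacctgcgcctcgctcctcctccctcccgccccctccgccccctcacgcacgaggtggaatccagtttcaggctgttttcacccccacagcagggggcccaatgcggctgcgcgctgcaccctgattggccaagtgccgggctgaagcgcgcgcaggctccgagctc

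Tudor proteins bind PIWI proteins through methylated arginines. Tdrd1 (ENSMUSG00000025081), which partners with MILI, had a peak at chr19:56900296-56901357, which is 1062 bp, with a score of 457 and rank 449. It covers 3 TSSs that lie within 77 bp of each other, and the midpoint is in the 5' UTR part of exon 1, 50 bp downstream of the last of them. A TSS 4503 bp into the gene lies outside the peak. Asz1 (ENSMUSG00000010796), a germ granule scaffold protein on mitochondria also known as GASZ, had no peak. The nearest midpoint was 611.2 kb from the closest of its 5 TSSs, an internal start in the gene, and 645133 bp from the 5' one, in a peak at Met with a score of 174.
Tdrd1 (chr19:56900459-56900698, plus strand): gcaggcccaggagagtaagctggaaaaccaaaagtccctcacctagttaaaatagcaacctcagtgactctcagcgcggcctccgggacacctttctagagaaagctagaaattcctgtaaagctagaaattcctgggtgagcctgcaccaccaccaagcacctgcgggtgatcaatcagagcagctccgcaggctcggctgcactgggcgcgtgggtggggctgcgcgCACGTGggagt

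Fkbp6 (ENSMUSG00000040013), which encodes a co-chaperone of the heat shock protein that takes part in piRNA loading, had a peak at chr5:135825242-135826486, which is 1245 bp. Its score of 231, with rank 1635, was the lowest of the 6. The peak covers all 3 annotated TSSs, which lie within 150 bp, and the midpoint is 3 bp upstream of the TSS at 135825861. Fkbp6 was also the bound gene with the closest other listed peak, 3.516 kb away at Trim50 with a score of 460. At the other 5 genes the next listed peak was at least 70.58 kb away. No TSS of another gene lay within 1000 bp of the midpoint in any of the 6 peaks.
Fkbp6 (chr5:135825896-135826135, minus strand): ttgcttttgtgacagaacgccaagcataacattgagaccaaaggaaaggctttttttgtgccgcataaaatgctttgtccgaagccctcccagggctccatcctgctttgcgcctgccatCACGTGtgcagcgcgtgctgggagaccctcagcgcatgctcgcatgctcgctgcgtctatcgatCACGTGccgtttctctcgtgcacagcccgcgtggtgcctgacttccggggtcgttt

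The peaks at these genes were narrow for the list. Their widths were 1012, 1058, 1062, 1152, 1245 and 1350 bp, and all 6 were below the median of 1433 bp over all peaks, whose quartiles were 1183 and 1776 bp. The share of all peaks that were narrower was 9.5% at Piwil1, 13.1% at Mael, 13.5% at Tdrd1, 22.0% at Ddx4, 31.5% at Fkbp6 and 41.6% at Mov10l1. The midpoints were also close to the nearest TSS, at 2 bp for Mov10l1, 3 bp for Fkbp6, 50 bp for Tdrd1, 60 bp for Piwil1, 148 bp for Ddx4 and 227 bp for Mael. The median over the 3169 bound protein-coding genes was 191 bp, and 5 of the 6 genes were below it. From the most upstream TSS, used for CpG content and motifs, the distance was 83 bp at Mov10l1, 31 bp at Fkbp6 and 127 bp at Tdrd1, and the same at the other 3 genes. These are descriptions of 6 peaks in 1 library, with no test.

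**Figure D2:**
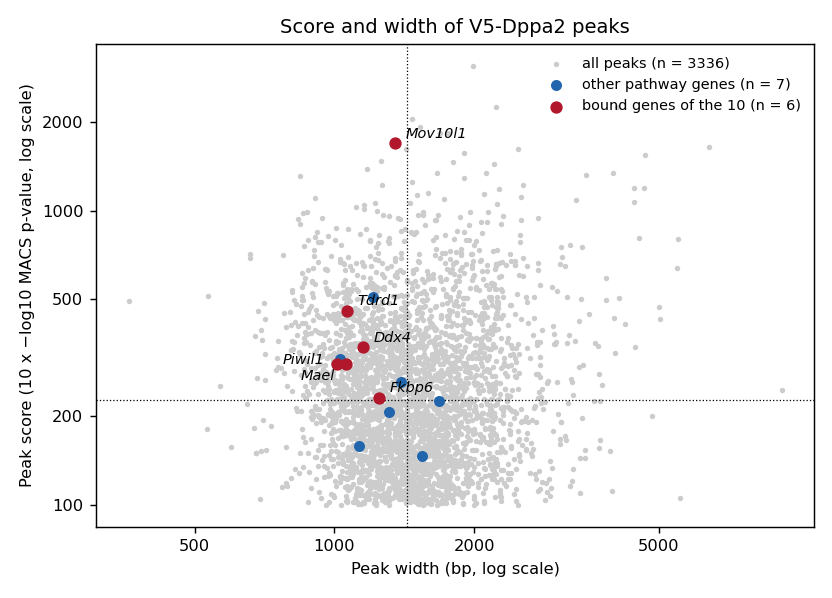
Score against width of all 3336 V5-Dppa2 peaks (grey), both on log scales, with the 6 bound genes of the group in red, the 7 other bound genes of the pathway in blue and the medians as dotted lines. The red points lie to the left of the median width and above the median score, and Mov10l1, at 1691, lies near the top of the list.

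The sequence under the peaks was unique for the most part. In the peaks of Piwil1, Ddx4, Mov10l1, Mael and Tdrd1, 0 of the 36-mers occurred more than once in mm9. At Fkbp6 it was 30 of 1210, or 2.48%. In the 1000 bp around the TSS of the unbound genes it was 0 of 965 at Piwil4, Tdrd9 and Asz1 and 1 of 965 at Piwil2.

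Promoter CpG content was compared because bound protein-coding genes as a whole were rich in CpG. The observed-to-expected ratio of CpG in 1000 bp around the TSS had a median of 0.776 in bound protein-coding genes and of 0.467 in those without a peak. In the bound genes of the group it was 0.470 at Piwil1, 0.604 at Mov10l1, 0.671 at Tdrd1, 0.690 at Mael, 0.747 at Ddx4 and 0.777 at Fkbp6. Of these 6, 5 were below the median of bound genes, and Fkbp6 was next to it. The unbound genes had 0.388 at Piwil4, 0.441 at Piwil2, 0.442 at Tdrd9 and 0.606 at Asz1. The 2 sets overlap, as the ratio of the unbound Asz1 exceeded those of the bound Piwil1 and Mov10l1. The gene with the highest score, Mov10l1, was among the lower ratios, with 48 CpGs in the 1000 bp against 77 at Ddx4.

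**Figure D3:**
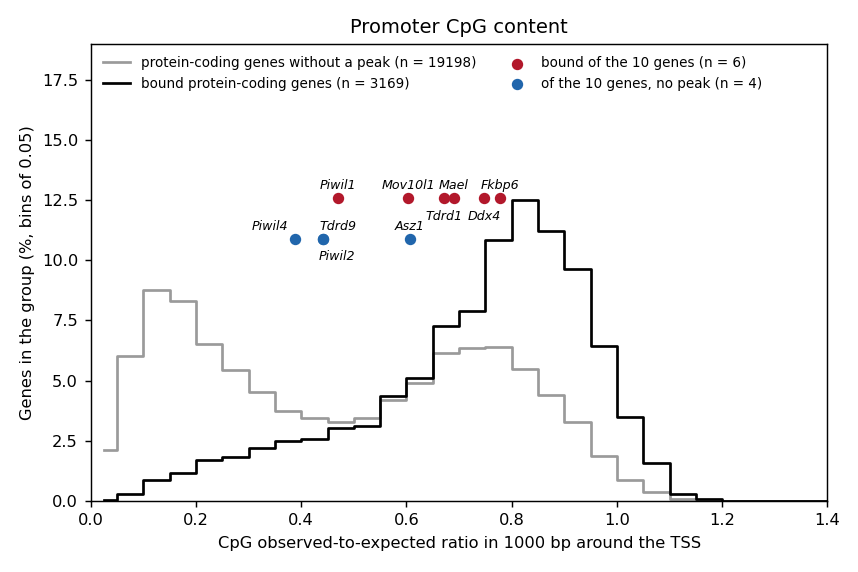
CpG observed-to-expected ratio in 1000 bp around the TSS for bound protein-coding genes (black line) and those without a peak (grey line), as percent of each group in bins of 0.05, with the 10 genes as points at an arbitrary height. The bound genes (red) span 0.470 to 0.777 and overlap the unbound ones (blue), which span 0.388 to 0.606.

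Over all protein-coding genes the bound share was 0.715% in the lowest decile of this ratio and 34.8% in the highest. The 10 genes fell into the middle of that range. In the decile of Piwil1, Piwil2 and Tdrd9 12.1% of genes were bound, in that of Piwil4 7.47%, in that of Mov10l1 and Asz1 14.9%, in that of Tdrd1 and Mael 16.7%, and in that of Ddx4 and Fkbp6 20.3%. By promoter class, 8 of the 10 genes had a stretch of 500 bp with high CpG content and 2, Piwil2 and Piwil4, were intermediate. All 6 bound genes were in the high class, as were the unbound Tdrd9 and Asz1. Of all protein-coding genes, 22.3% of the 12597 in the high class, 5.98% of the intermediate and 1.68% of the low class were bound.

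Along the sequence, the 10 genes each had a short rise in CpG density at the TSS. In windows of 200 bp the highest density was 15.5 CpGs per 100 bp at Ddx4, 11.5 at Fkbp6, 11.0 at Mael, 10.5 at Tdrd1, 7.0 at Piwil1 and 6.5 at Mov10l1. In all 10 genes, bound or not, the highest window lay at most 100 bp from the TSS. The Dppa2 peaks of the 6 bound genes cover the TSS, so their highest windows also lay within the peak. The unbound genes had 7.5 at Asz1, 6.5 at Tdrd9, 6.0 at Piwil2 and 4.5 at Piwil4, so that Asz1 and Tdrd9 were within the range of the bound genes. Farther than 1 kb from the TSS the median density was between 0.5 and 1.5 in all 10.

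**Figure D4:**
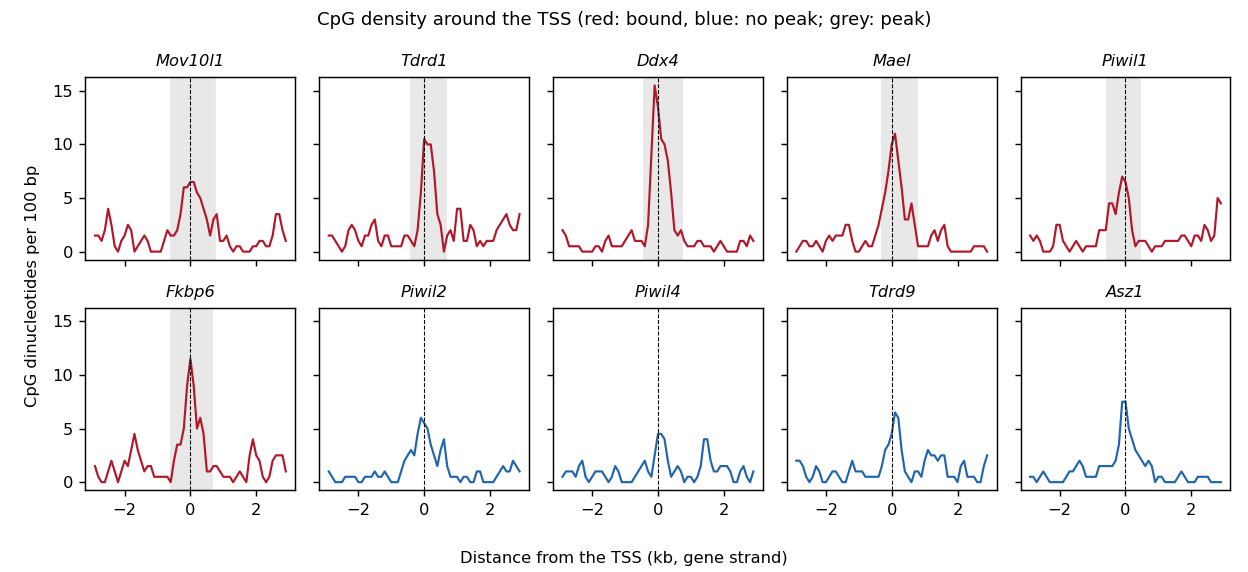
CpG dinucleotides per 100 bp in windows of 200 bp against the distance from the TSS in kb, on the strand of the gene, for the 6 bound genes (red, with the peak in grey) and the 4 genes without a peak (blue). The highest window of each bound gene, from 6.5 at Mov10l1 to 15.5 at Ddx4, lies in its peak. Every highest window, in bound and unbound genes, lies at most 100 bp from the TSS.

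Most of the promoters shared a motif. The genes and the motifs searched were chosen with earlier results of these data known, so the counts are a description and were not tested. Within 500 bp of the TSS, 9 of the 10 genes held the E-box CACGTG, the site of basic helix-loop-helix factors such as Max and its partners, and Piwil4 was the exception. The letters occurred in 16.9% of all protein-coding promoters of this length, in 18.9% of the Dppa2-bound ones and in 21.5% of those in the high CpG class. Of the 10 genes, 5 had at least 2 copies, namely Piwil1, Piwil2, Tdrd1, Tdrd9 and Fkbp6, against 2.49% of all protein-coding promoters. The E-box was present in 6 of 6 bound and in 3 of 4 unbound genes, so it did not separate them. The 9 copies in bound genes all lay upstream of the TSS, at -179 and -154 in Piwil1, -29 in Ddx4, -161 in Mov10l1, -223 in Mael, -489 and -11 in Tdrd1 and -120 and -56 in Fkbp6, each number being the position of the first letter from the most upstream annotated TSS of the gene. Of these 9, 8 lay within the peak, between 84 and 448 bp from its midpoint. The copy at -489 of Tdrd1 was outside. The peaks reach from 302 bp at Mael to 676 bp at Mov10l1 before the nearest TSS. Most upstream copies within the 500 bp searched would thus lie in a peak by position alone. In the central 1000 bp of the peak the E-box was found at 6 of 6 genes and in 18.6% of all listed peaks. The 8 copies within the peaks all fall in that central part, so for the 6 genes this repeats the promoter count. A match is a description of the letters, and binding of a factor to them was not measured.

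Among the unbound genes, Tdrd9 also had both copies upstream of the TSS, at -165 and -95. In 2 of the unbound genes the E-box lay downstream, at +138 and +244 in Piwil2 and at +201 in Asz1. The copy at +138 of Piwil2 is in the 5' UTR part of exon 1, and the copies at +244 of Piwil2 and +201 of Asz1 are in intron 1. The 3 downstream copies are printed with 10 bases on either side to set them beside the upstream copies above.
Piwil2 +138 (chr14:70828748-70828773, minus strand): cggcacagtcCACGTGgtggaaaggt
Piwil2 +244 (chr14:70828642-70828667, minus strand): ccagagggcaCACGTGgagacctgga
Asz1 +201 (chr6:18058845-18058870, minus strand): taggcctagaCACGTGgacccagttt

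In the 10 genes, the other 4 motifs were closer to their shares among all promoters. The E2F letters TCCCGCC were found on either strand in 4 of the 10 genes, all of them bound, namely Ddx4, Mov10l1, Mael and Fkbp6. They were present in 28.6% of all protein-coding promoters and in 46.6% of the bound ones. The NRF1 letters GCGCATGCG occurred in 1 gene, Mov10l1, 30 bp before the TSS, and in 2.92% of all promoters. The cyclic AMP response element TGACGTCA occurred in 0 of the 10 and in 3.2% of all. The MYB letters CAACNG were in 8 of the 10 and in 73.0% of all promoters. None of the matches of different motifs overlapped in these genes.

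**Figure D5:**
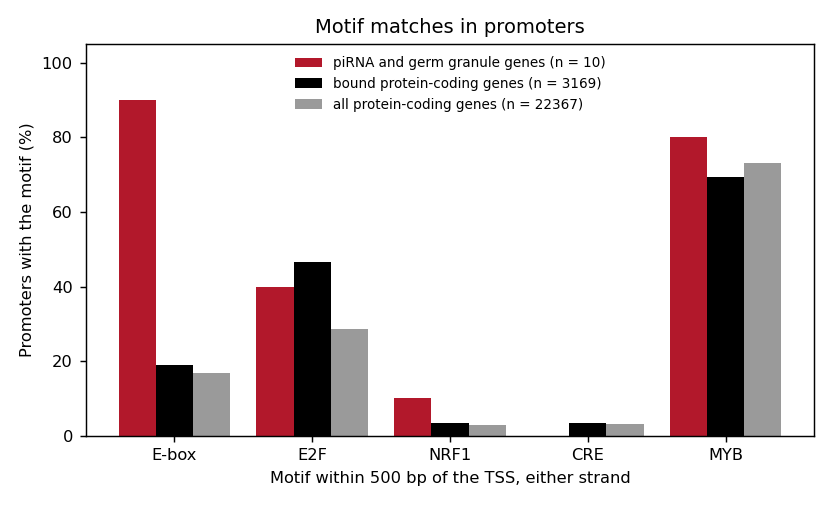
Percent of promoters with each of 5 motifs within 500 bp of the TSS on either strand, for the 10 genes (red), the 3169 bound protein-coding genes (black) and all 22367 protein-coding genes (grey). The E-box was present in 9 of the 10 genes and in 16.9% of all, and the other 4 motifs differed less between the 10 genes and the rest.

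A further 26 genes of the pathway and of germ granules were listed beside the 10, of which 24 were matched to the annotation. Of the 24, 7 were bound, against the 14.2% of all protein-coding genes, and 3 of these 7, Tdrd6, Pnldc1 and Gpat2, were known to be bound when the list was written. Stk31, which encodes a Tudor-domain kinase, had the highest score, 507 with rank 357, in a peak at chr6:49345022-49346229. Gpat2, which encodes a mitochondrial acyltransferase needed for piRNA production, followed with 313, in a peak at chr2:127250497-127251522. Tdrkh, a mitochondrial Tudor protein that serves in piRNA trimming, had a score of 262, and Pnldc1, the exonuclease that trims piRNA 3' ends, had 159. Tex15, a nuclear factor of piRNA-directed silencing, had 226, Tdrd6, a Tudor protein of the chromatoid body, had 207, and Mybl1, the transcription factor A-MYB of meiotic piRNA genes, had 146. The midpoints of these 7 peaks lay between 9 bp from the TSS at Stk31 and 335 bp at Tdrd6. In contrast to the 6 bound genes above, 4 of the 7 scores were below the median of all peaks, while 5 of the 7 widths were again below the median width. The Tdrkh peak also had the TSS of 1700040D17Rik within 1000 bp, at 236 bp from its midpoint. At Pnldc1, 11.2% of the 36-mers in the peak occurred more than once in mm9, against at most 0.341% in the other 6.

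The 17 listed genes without a peak were Tdrd5, Tdrd7, Tdrd12, Rnf17, Pld6, Gtsf1, Exd1, Ddx25, Tex19.1, Morc1, Dnmt3l, Nanos2, Nanos3, Prmt5, Kif17, Hsp90aa1 and Spocd1. Their nearest listed midpoints lay between 14634 bp, at Dnmt3l, and 2000718 bp, at Morc1. Tdrd5 had a CpG ratio of 0.909, the highest of all the genes listed, and no peak, and it is annotated as a lincRNA in GENCODE M1. The E-box was found within 500 bp of the TSS in 10 of the 24 genes, against 16.9% of all protein-coding promoters, and in 2 of the 7 bound ones, Stk31 and Pnldc1. It lay upstream in Stk31, at -151, and downstream in Pnldc1, at +4 and +51, so an upstream position was not shared by all bound genes. In the central 1000 bp of the peak it was found at 4 of these 7, against 18.6% of all listed peaks. The NRF1 letters were found in 4 of the 24 genes, against 2.92% of all protein-coding promoters. Of the 7 bound genes 3 held them, Stk31, Gpat2 and Tex15, against 3.38% of all bound promoters. The E2F letters were in 4 of the 24 and 3 of the 7, and the MYB letters in 16 and 3. The cyclic AMP response element was in 0. These counts were not tested.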

How the data were processed

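V5-Dppa2 CGR8 ESCs and, as a control, the parental line were profiled by ChIP-seq with an anti-V5 antibody. The peak list of the former was used, and the other 5 samples were not analysed here. Per the submitters' notes and the methods, the authors mapped reads to mm9 with Bowtie 0.12.7, keeping the best alignment of reads with several, removed duplicates with Picard 1.81 and called peaks with MACS 1.4.2. The deposited score is the −log10 p-value given by MACS, multiplied by 10. Depth is unknown from a peak list.

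Distances were taken from every TSS in GENCODE M1 to peak midpoints, since no summits are given. Midpoints within 1000 bp counted as bound. CpG and GC content refer to 1000 bp around the TSS with the largest number of transcripts, or the most upstream of those tied, which was the most upstream TSS in all 10 genes. The high CpG class had, from 500 bp before to 2000 bp after the TSS, a stretch of 500 bp with a CpG ratio of at least 0.6 and at least 55% GC, and the low class none reaching 0.4. Motifs were searched on both strands within 500 bp of the same TSS. Sequences came from the mm9 genome. Henmt1 and Btbd18 were not matched and not analysed here. The members, gene list and motifs were chosen with earlier results of these data known. Genes named are the 10 genes, the other bound pathway genes, genes at the same peak or nearest to the closest one. The unbound listed genes and Trim50 were added after their values were seen. The steps were tested on simulated data. Python 3.11.15, numpy 2.4.6, numba 0.67.0, pandas 2.3.3, matplotlib 3.10.9 and samtools 1.23.1 were used.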

Additional observations from a re-analysis of the deposited data

How the results depend on the processing

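No paired analysis was possible because the list comes from 1 library, which also left no replicate to leave out. The same 6 of the 10 genes were bound with windows of 500, 2000 and 5000 bp, with the nearest base of the peak in place of the midpoint, at a score of at least 200 and with protein-coding transcripts only. The windows, the nearest base and the score limit could not have changed these 6. Bound midpoints lay at most 227 bp from a TSS, unbound ones at least 28950 bp, and the lowest of the 6 scores was 231. The wider windows are also a weak check for all genes, since the list may hold only peaks at gene starts and they could then add few genes. At 5000 bp the number of all bound protein-coding genes was 3464. At the stricter score the number of all bound protein-coding genes fell from 3169 to 1802, or 8.06%, as fewer peaks entered, and that of the other listed genes from 7 to 5, without Pnldc1 and Mybl1. RefSeq gene starts, an alternative chosen after seeing the data, were placed on mm9 for 9 of the 10 genes, all but Piwil2, and the same 6 were bound. Of the 7 other bound genes, 3 could be placed, and all 3 were bound. Within 250 bp of the TSS the E-box remained in 9 of the 10 genes, against 10.3% of all promoters. The CpG ratio of Asz1 was 0.606 at its most upstream start and 0.210 at the internal start closest to a peak. With 1 library of unknown depth, weaker binding at the 4 genes without a peak was not detectable.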
